A study of Mus musculus with 2 samples.

Results

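The Tmed genes encode the p24 proteins, the transmembrane cargo receptors of traffic between the endoplasmic reticulum and the Golgi. The part of the data described here is every probe set annotated to one of the 10 genes Tmed1 to Tmed10. A probe set is the group of short probes on the array that reads one transcript, and probe sets were found for 9 of the 10 genes, out of 19324 genes named in the annotation. The 9 genes had 31 probe sets, of which 21 were annotated to a Tmed gene alone and 10 were annotated jointly with a pseudogene. No probe set was annotated to Tmed1. The family was chosen by the antagomir-122 over control ratio of Tmed3, a known target of miR-122, so the ratios of the Tmed genes are given as a description and support nothing further.

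The study measured liver RNA of mice with single-colour Affymetrix arrays, 1 for each treatment. Mice of the antagomir-122 group received an oligonucleotide directed against miR-122, a microRNA abundant in hepatocytes, and mice of the control group received mm-antagomir-122, a scrambled version of it. Each group received a daily dose of 80 mg/kg for 3 days, and livers were taken 24 h after the last of these. For each array the RNA of 3 livers was combined, so each value stands for 1 pool, the spread between animals is not measured, and no test between the treatments was possible. The strain, sex and age of the mice are not given in the sources used here.

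The p24 proteins have a luminal GOLD domain, a coiled-coil stretch and a short cytosolic tail that binds the COPI and COPII vesicle coats. They fall into the alpha (Tmed4, Tmed9 and Tmed11), beta (Tmed2), gamma (Tmed1, Tmed3, Tmed5, Tmed6 and Tmed7) and delta (Tmed10) subfamilies, work as complexes of different subfamilies, and carry GPI-anchored proteins and other secretory cargo out of the endoplasmic reticulum. Tmed8 has a GOLD domain but belongs to none of these subfamilies. Hepatocytes, which secrete most plasma proteins, depend heavily on this route.

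Values are MAS5 signal intensities, which were scaled on each array to a 2% trimmed mean of 500.0, and ratios are the antagomir-122 signal over the control signal on the log2 scale. A gene was kept where a probe set annotated to it alone had a mean log2 signal in the upper 40% of all probe sets, at or above a signal of 238, and it is represented by its brightest such probe set. This left 10003 genes. Of the Tmed genes 7 were kept, namely Tmed3, Tmed4, Tmed5, Tmed7, Tmed8, Tmed9 and Tmed10. Between probe sets of the same gene the ratio had a spread (SD) of 0.28 over 3860 pairs, 0.35 for the dimmest 3335 genes (589 pairs) and 0.23 for the brightest 3334 (1812 pairs). The labelled tissue fits its markers, since 9 of 9 measured hepatocyte genes, Alb and Ttr among them, had signals from 7418 to 30721. Kept leukocyte markers were higher in the antagomir-122 pool except Elane, a neutrophil gene, with 261 against 323, a log2 ratio of -0.31. At least 1.5-fold higher were 5 of 6 kept neutrophil genes, 2 of 12 Kupffer cell and macrophage genes and 3 of 6 lymphocyte genes. Of all kept genes 5.12% were higher by that much. The summed signals of the lists were 8026 against 2461 for neutrophils, 73842 against 55902 for macrophages and 5203 against 3114 for lymphocytes, while Camp, Cd3e, Cd3g and Cd2 were under the floor on both arrays and no marker was at 0. In whole liver more RNA per cell and more cells of a type cannot be told apart, and the part of the leukocyte markers in the Tmed values was not tested.

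The Tmed genes did not move as one group. On their brightest probe sets 2 of the 7 kept genes, Tmed3 and Tmed8, were at least 1.5-fold higher in the antagomir-122 pool, and 1, Tmed5, was at least 1.5-fold lower. Of all 10003 kept genes 5.12% were higher by at least 1.5-fold and 2.62% were lower by that much. Since the family was chosen with Tmed3 in view, nothing is read from the share of its members past this size. The other 4 kept genes had log2 ratios from -0.52 to 0.35, and the median of the 7 was 0.27, beside 0.00 for all kept genes. Over all 23 Tmed probe sets at or above the floor, shared ones included, 2 were higher by at least 1.5-fold, 2 lower by that much and 19 within 1.5-fold, beside 5.09% higher and 3.21% lower among 16532 annotated probe sets.

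**Figure D1:**
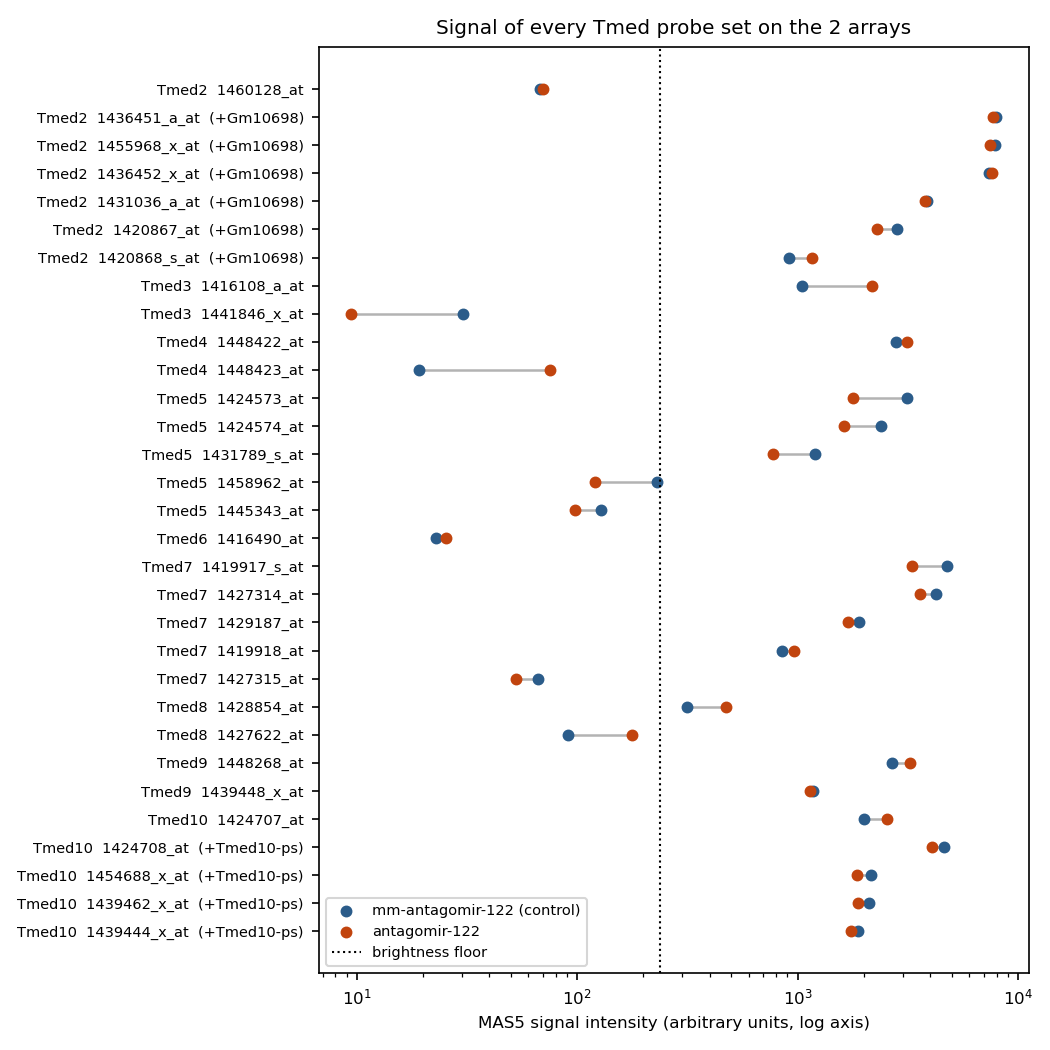
MAS5 signal intensity (log axis) of each of the 31 Tmed probe sets on the antagomir-122 array (orange) and the control array (blue), joined by a grey line, with pseudogenes that share a probe set in brackets and the floor of 238 dotted. The orange point lies to the right for the bright Tmed3 probe set (2167 against 1046) and to the left for all 5 probe sets of Tmed5.

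The 3 genes past 1.5-fold are shown with the sequence at their start, because they lie at opposite ends of the family. Each window runs from 250 bases before to 50 bases after the annotated transcript start in RefSeq (GRCm38.p6), and 8 of the 10 Tmed genes had such a window in the table, in 9 windows. The window of Tmed3 is chr9:89704994-89705293, that of Tmed5 chr5:108132571-108132870 and that of Tmed8 chr12:87200180-87200479, all on the minus strand and written 5′ to 3′ along the gene. Capitals mark the CCAAT box (CCAAT), the 3′ end of the endoplasmic reticulum stress response element (CCACG) and the GC box (GGGCGG), on either strand.
Tmed3: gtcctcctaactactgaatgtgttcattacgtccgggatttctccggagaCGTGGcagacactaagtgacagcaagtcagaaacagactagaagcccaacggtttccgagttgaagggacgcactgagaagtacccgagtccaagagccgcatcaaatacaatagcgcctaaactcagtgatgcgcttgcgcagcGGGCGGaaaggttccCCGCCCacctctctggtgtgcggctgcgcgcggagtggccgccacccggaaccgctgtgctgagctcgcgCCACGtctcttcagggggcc
Tmed5: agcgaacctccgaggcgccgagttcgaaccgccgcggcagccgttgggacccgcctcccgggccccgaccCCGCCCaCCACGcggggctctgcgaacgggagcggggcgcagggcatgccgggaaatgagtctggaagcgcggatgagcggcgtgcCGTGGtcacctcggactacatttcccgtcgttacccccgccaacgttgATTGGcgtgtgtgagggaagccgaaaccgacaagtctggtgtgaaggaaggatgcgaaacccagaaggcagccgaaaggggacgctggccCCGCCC
Tmed8: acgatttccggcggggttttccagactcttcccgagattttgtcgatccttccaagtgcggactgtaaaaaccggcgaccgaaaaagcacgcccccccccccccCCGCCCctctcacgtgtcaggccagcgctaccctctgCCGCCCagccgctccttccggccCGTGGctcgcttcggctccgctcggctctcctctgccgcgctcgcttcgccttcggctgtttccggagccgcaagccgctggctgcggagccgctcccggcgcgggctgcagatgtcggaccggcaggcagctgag

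The Tmed3 window held no CCAAT, 2 copies of CCACG and 2 GC boxes. The Tmed5 window held 1 CCAAT, 2 copies of CCACG and 2 GC boxes, and the Tmed8 window no CCAAT, 1 CCACG and 2 GC boxes. Over all 9 Tmed windows 6 held CCAAT, 8 held CCACG and 4 held a GC box, beside 37.4%, 32.8% and 35.7% of 32851 windows of the same length. CCAAT and CCACG are also the ends of the whole stress element, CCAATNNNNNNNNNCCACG, which was found in 0 of the 9 Tmed windows and in 0.119% of all windows. The windows of Tmed3, Tmed5 and Tmed8 had 59.0%, 68.3% and 68.7% G or C, against a median of 52.7% over all windows. The other Tmed windows ran from 49.7% to 62.0%. These matches describe letters in the windows and not binding sites, and a miR-122 site in the transcripts was not examined here.

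Tmed3, a gamma subfamily member, was the highest of the family. Its probe set 1416108_a_at gave a signal of 2167 in the antagomir-122 pool and 1046 in the control pool, a 2.07-fold higher value or a log2 ratio of 1.05. That placed it 72nd from the top of the 10003 kept genes, at 4.57 times the probe set spread of the brightest 3334. Since the family was chosen by this ratio, nothing further is read from that rank or multiple. The suffix _a marks probes shared by several transcripts of the same gene. The other Tmed3 probe set, 1441846_x_at, had signals of 9.4 and 30.3, both far under the floor and in the opposite order, so the higher value of Tmed3 rests on 1 probe set.

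The 10 targets listed from antagomir studies give the setting of that value, and the list was chosen with these arrays known. Of its 9 kept genes 7 were higher by at least 1.5-fold and 0 lower by that much, beside 5.12% and 2.62% of all kept genes. The median log2 ratio of the 9 was 0.95. Slc7a1 had -0.17, and Iqgap1 had 0.28 on its brightest probe set and up to 0.65 on another. Ccng1, among the higher ones, had 1.52 on its brightest probe set and down to 0.37 on another. Gys1, with signals of 370.9 in the antagomir-122 pool and 40.3 in the control pool, was not kept. Its mean log2 signal was under the floor. Tmed3, at 1.05, lay between P4ha1, a subunit of collagen prolyl hydroxylase, at 1.09 and Cd320, the receptor for transcobalamin, at 0.95. Differences of that size are inside the probe set spread.

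Genes outside the family whose pair of signals lay nearest to that of Tmed3 were E2f5, Gzma, Cyp8b1, Spns2 and Slc25a45. The distance was taken on the log2 scale over the 2 arrays, and genes with Riken, Gm, LOC or EST names were left out. E2f5, a transcription factor of the cell cycle, lay 0.088 away with signals of 2208 and 987, but over its 3 probe sets the log2 ratio ran from -0.13 to 1.16. Gzma, a granzyme of cytotoxic lymphocytes, had signals of 1973 and 1028 at a distance of 0.14. Cyp8b1, the sterol 12α-hydroxylase of bile acid synthesis, had 2115 and 945 at 0.15. Spns2, a sphingosine 1-phosphate transporter, and Slc25a45, a mitochondrial carrier, lay 0.16 away each. With 2 arrays such likeness means a like brightness and a like ratio and nothing more.

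Tmed5, another gamma subfamily member, which is needed for the ribbon structure of the Golgi, was the lowest of the family. Probe set 1424573_at had signals of 1778 in the antagomir-122 pool and 3125 in the control pool, or 1.76-fold lower. Probe set 1424574_at, designed to the same source sequence, had 1616 and 2393, or 1.48-fold lower. Probe set 1431789_s_at, from another source sequence, had 769.8 and 1200.2, or 1.56-fold lower. The antagomir-122 signal was thus the lower one on each of the 3 probe sets above the floor, with a mean log2 ratio of -0.67 ± 0.13 (SD over 3 probe sets of 2 source sequences, which are not replicates).

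The 2 dim probe sets of Tmed5 had the same order of signals, 120.4 against 229.7 and 97.8 against 128, both pairs under the floor. By its brightest probe set Tmed5 was 87th from the bottom of the kept genes, at a log2 ratio of -0.81, whose size was 3.54 times the spread of the brightest 3334. Tmed3 minus Tmed5 came to 1.86 on the log2 scale, a difference that a common scaling of an array cannot move.

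**Figure D2:**
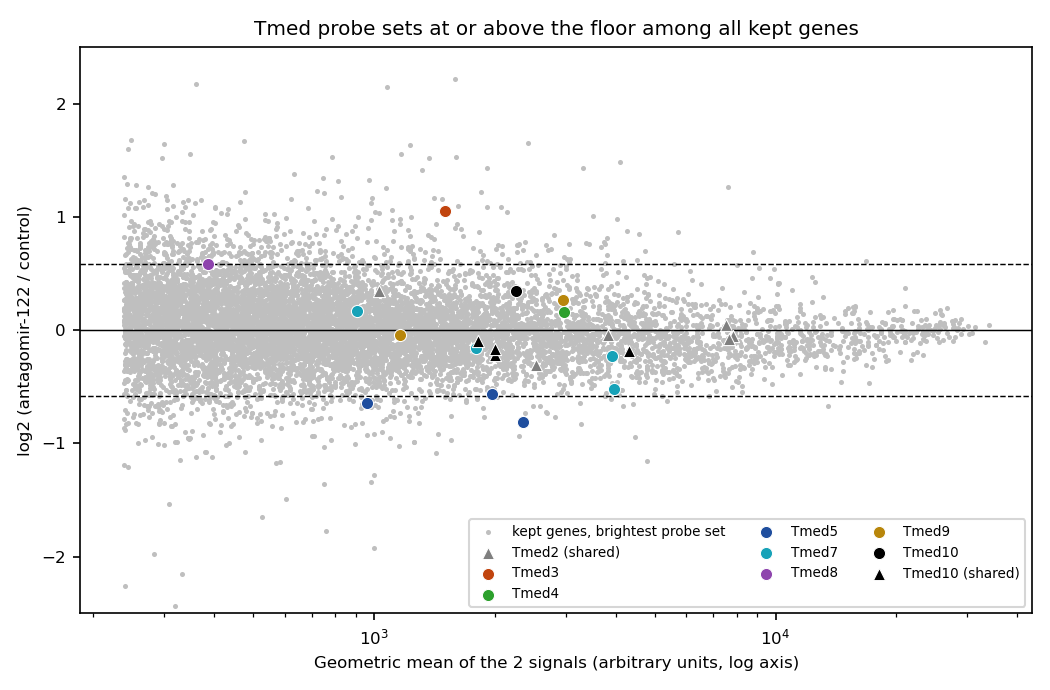
The log2 ratio of antagomir-122 over control (vertical axis) against the geometric mean of the 2 signals (log axis), for all kept genes by their brightest probe set (grey dots) and for the 23 Tmed probe sets at or above the floor (coloured, triangles where shared with a pseudogene). Dashed lines mark 1.5-fold and 3 genes lie outside the drawn range. Tmed3 stands at 1.05 and the 3 Tmed5 probe sets lie between -0.81 and -0.57.

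Tmed7, the gamma member that takes Toll-like receptor 4 to the cell surface, gave probe sets that disagreed. Probe set 1419917_s_at, whose suffix _s marks probes common to several transcripts or genes, had signals of 3316 and 4741, or 1.43-fold lower, with a log2 ratio of -0.52. The 3 others above the floor had 3609 and 4229, 1702 and 1897, and 962 and 854. Their log2 ratios were -0.23, -0.16 and 0.17, so the mean over the 4 probe sets was -0.18 ± 0.28 (SD). The remaining probe set, at 52.6 and 66.1, was under the floor. Scaled on the hybridization controls 3 of the 4 lay above 0, so no direction is given for Tmed7.

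Tmed6, a gamma member known from the pancreas, had signals of 25.4 and 22.8 on its single probe set. Both were under the floor, at the 14th percentile of probe sets, and no ratio is given. Of 6 measured pancreas markers 4 were under the floor on both arrays, while Cela1 had signals of 1098 and 989.9 and Prss2 263 and 174.

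Both kept alpha subfamily members were nearly level between the pools. Tmed4 had signals of 3144 and 2809 on probe set 1448422_at, a log2 ratio of 0.16, and 75.4 and 19.2 on a dim one under the floor. Tmed9 had 3245 and 2694 on probe set 1448268_at and 1140.2 and 1178 on probe set 1439448_x_at, whose suffix _x marks probes that can cross-hybridise. Its log2 ratios of 0.27 and -0.05 lie on either side of 0, and both were above 0 when scaled on the hybridization controls. On probe sets above the floor none of these ratios reached 1.5-fold, either as deposited or scaled on the hybridization controls.

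Tmed2, the single beta member and the partner with which Tmed10 leaves the endoplasmic reticulum, was read almost wholly by probe sets that also match the pseudogene Gm10698. The 3 brightest of these 6 shared probe sets had signals of 7694 and 7982, 7464 and 7896, and 7635 and 7417. The other 3 had 3779 and 3882, 2281 and 2822, and 1157 and 912. Log2 ratios ran from -0.31 to 0.34 with a median of -0.05, and 2 of the 6 were above 0, against 5 with quantile normalization, 4 with loess correction and 5 when scaled on the hybridization controls. Its only probe set of its own had signals of 69.8 and 67.6, under the floor, so Tmed2 was not among the kept genes.

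Tmed10, the delta member, also known as a modulator of γ-secretase, had a ratio that depended on the probe set. Probe set 1424707_at, annotated to Tmed10 alone, had signals of 2546 and 1999.7, a log2 ratio of 0.35. The 4 probe sets shared with the pseudogene Tmed10-ps had 4055 and 4618, 1855 and 2159, 1888 and 2116, and 1757 and 1874. Those ratios lay between -0.22 and -0.09 as deposited and were all above 0 when scaled on the hybridization controls. Within the 2 arrays the probe set of Tmed10 alone had a higher ratio than each of the 4 shared ones, whichever scaling was used, and signal from gene and pseudogene cannot be told apart on the shared ones.

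Tmed8, the GOLD protein outside the subfamilies, was read by a probe set at the 70th percentile of brightness. Probe set 1428854_at had signals of 472 in the antagomir-122 pool and 315 in the control pool, a log2 ratio of 0.59. This is 1.67 times the spread of the dimmest 3335 genes, and it lies on the 1.5-fold line itself, so that centring, quantile normalization or loess correction each took it below. The second probe set, at 177 and 91.2, had the same order of signals and was under the floor on both arrays.

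**Figure D3:**
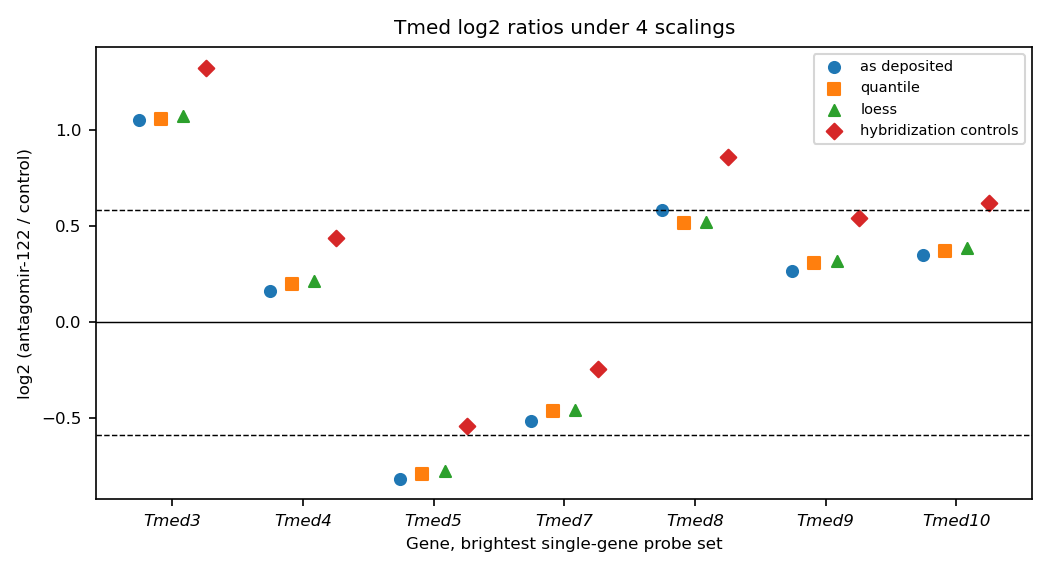
The log2 ratio of the brightest single-gene probe set of the 7 kept Tmed genes, as deposited and after quantile normalization, loess correction and scaling on the hybridization controls, with dashed lines at 1.5-fold. Tmed3 lies above the upper line under each of these 4, Tmed5 lies below the lower line in 3 of them and at -0.54 when scaled on the hybridization controls.

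A common scale matters for the small ratios. The 18 probe sets for hybridization controls, transcripts added to the sample, had a median log2 ratio of -0.27, and 17 of them were lower on the antagomir-122 array. Scaling on them adds 0.27 to every log2 ratio, which raises Tmed3 to 1.33, puts Tmed10 past 1.5-fold at 0.62 and brings Tmed5 to -0.54. Whether the added amount or the liver RNA differed cannot be told apart. Directions given here are as deposited, relative to the bulk of genes.

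The genes with which p24 proteins work were taken as 7 lists. Of 88 genes 84 were kept, of which 0 were higher by at least 1.5-fold on their brightest probe sets and 2 (2.38%) were lower by that much, beside 5.12% and 2.62% of all kept genes. Their median log2 ratio was -0.05. A further 5 genes were within 1.5-fold on the brightest probe set and past it, upwards, on another above the floor. These were Copg1, Arf3, Lman2, Pgap6 and Xbp1, named after their values were seen, so the counts of higher genes depend on the probe set used. The same count was not made over all kept genes, so nothing else is read from it. Of 16532 annotated probe sets at or above the floor 5.09% were at least 1.5-fold higher and 3.21% lower by that much.

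The COPI coat, which p24 tails recruit for return to the endoplasmic reticulum, had 9 of 9 genes kept and 0 past 1.5-fold on the brightest probe sets. Of these 8 had a ratio below 0 as deposited and with quantile or loess correction, and 0 when scaled on the hybridization controls. The share of all kept genes below 0 was not counted, so nothing is read from this count. The median of all kept genes was 0.00 as deposited, -0.03 with a floor at the 80th percentile and 0.28 when scaled on the hybridization controls. The median of the COPI genes was -0.16, with Cope, Copb1 and Copz2 at -0.26, -0.24 and -0.21, while Copg1 had 0.17 on its brightest probe set and 0.65 on another. The Arf1 cycle, the GTPase switch that loads COPI, had 8 of 8 genes kept, 0 past 1.5-fold and a median of -0.07. The widest ratios on brightest probe sets were -0.23 for Arf5, -0.22 for Gbf1, an exchange factor, and 0.18 for Arfgap3. Arf3 had -0.08 on its brightest probe set, but its 4 probe sets ran from -0.32 to 1.18.

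The COPII coat, which buds vesicles from the endoplasmic reticulum, had 13 of 14 genes kept, 0 past 1.5-fold and a median of 0.14. The cargo-binding subunits Sec24b, Sec24d and Sec24c had 0.48, 0.36 and 0.31. A second probe set of Sec24b had -0.18. Tethers and SNAREs of the route had 19 of 19 genes kept, 0 past 1.5-fold and a median of -0.05. Ykt6, a SNARE, had signals of 2585 and 1809, a log2 ratio of 0.51, while its second probe set had 0.10. Scfd1 and Stx5a had -0.39 and 0.19.

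Other cargo receptors of the same route had 14 of 16 genes kept, a median of 0.02, 0 genes higher by at least 1.5-fold and 1 lower by that much. That gene was Ergic2, a membrane protein cycling between endoplasmic reticulum and Golgi, with signals of 434 and 791 on its brightest probe set, or 1.82-fold lower. Its second probe set had 423 and 496, a log2 ratio of -0.23, so the size is uncertain. Surf4, a receptor for soluble secretory proteins, had a ratio of -0.37 on its brightest probe set and was below 0 on all 5 probe sets as deposited. Ergic1 had 0.33 on its brightest probe set, and from -0.01 to 0.33 over 3. Lman2, a lectin that binds glycoprotein cargo, had 0.22 on the brightest and 0.60 on its other probe set.

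**Figure D4:**
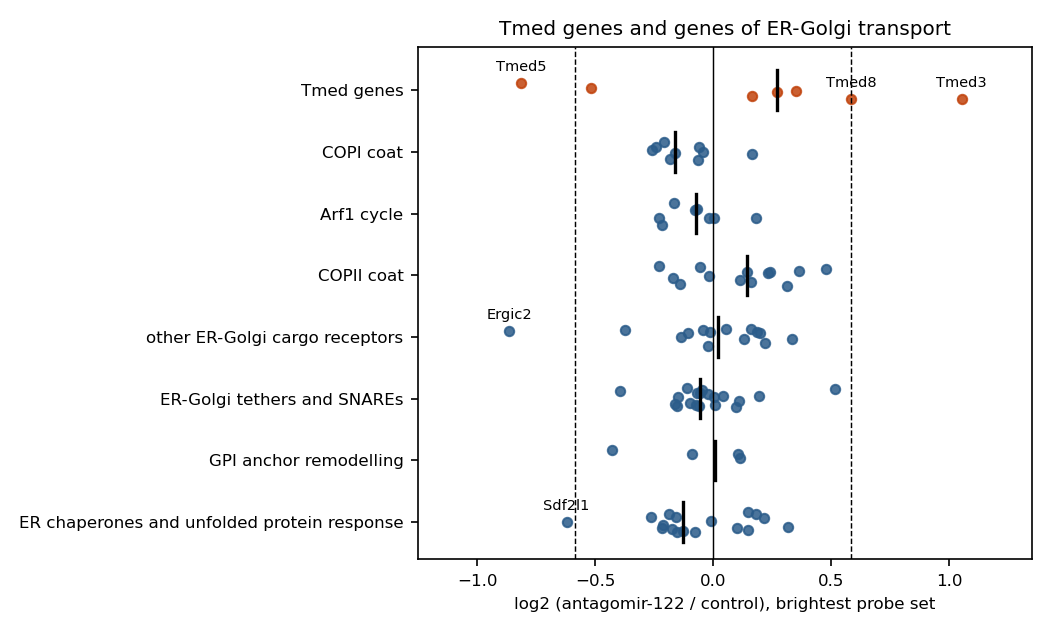
Log2 ratio of antagomir-122 over control for the 7 kept Tmed genes (orange) and the kept genes of 7 lists of the same route (blue), each on its brightest probe set, with list medians as black bars and 1.5-fold as dashed lines. Vertical scatter within a row has no meaning. Tmed3, Tmed8, Tmed5, Ergic2 and Sdf2l1 are the named points past a line.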

How the data were processed

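Liver RNA was measured on 2 single-colour arrays, and the authors deposited 1 linear signal intensity per probe set and array, calculated by MAS5, per the submitters' processing notes (version not given in the sources used here). No detection calls or probe-level values were used here, so dim values may be background. Samples were grouped by title. Of 45101 probe sets, 64 were controls, 34945 had 1 gene in the platform annotation, 932 several and 9160 none. Symbols were looked up by gene identifier in RefSeq (GRCm38.p6).

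Ratios were log2 of the deposited intensities with no pseudocount. The floor was the 60th percentile of mean log2 signal, and no fold is given where both signals lay under it. Probe set spread was the SD of the difference between the 2 brightest probe sets of a gene, divided by the square root of 2. It was taken within the same 2 arrays and leaves out the spread between arrays and between animals. With 1 array per treatment the precision is that of single arrays and no p-value is given. Named were all Tmed probe sets, up to 3 genes of each list with the widest ratio, every list gene past 1.5-fold, and the 5 genes nearest Tmed3. Riken, Gm, LOC and EST names and the Tmed genes were left out of the nearest genes. The members and lists were chosen with earlier results of these data known. Alternatives were other scalings (loess span 0.3), floors, thresholds, a pseudocount, the mean over probe sets and leaving out suffixed ones. The calculation was tested on simulated data. Python 3.11.15, pandas 2.3.3 and statsmodels 0.14.6 were used.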

Additional observations from a re-analysis of the deposited data

How the results depend on the processing

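With 1 array per treatment no alternative leaves out a replicate, and these results have no test. No paired analysis was possible because each treatment has a single pooled array. The median of the kept Tmed genes stayed between 0.05 and 0.54 over 12 alternatives, and the ratio of Tmed3 minus the median of the other Tmed genes, 0.84 as reported, stayed between 0.81 and 1.10 over 9. Tmed3 stayed between 1.04 and 1.33 and Tmed5 between -0.82 and -0.54 under every alternative that kept their probe sets. Without suffixed probe sets Tmed3 was not measured. The count of Tmed genes at least 1.5-fold higher fell from 2 to 1 with median centring, quantile normalization, loess correction, a floor at the 80th percentile, a pseudocount of 16.0, without suffixed probe sets or at a threshold of 2-fold, and was 3 when scaled on the hybridization controls. The lower count of 1 became 0 when scaled on the hybridization controls or at 2-fold, and 2 at 1.4-fold, where Tmed7 was added. Of all 31 Tmed probe sets, dim ones included, 4 were past 1.5-fold in each direction. For reference, with no floor 2769 of 18193 genes were higher by that much and 1717 lower. Those are genes on their brightest probe set and the Tmed count is of probe sets, so nothing is read from this count. With every signal raised to at least the floor the Tmed probe set count became 2 higher and 2 lower. At 2-fold it was 2 higher and 1 lower, and at 1.4-fold 4 higher and 6 lower. Scaled on the hybridization controls it was 6 higher and 2 lower. Of the 10003 kept genes, on their brightest probe sets, 83 were higher and 31 lower at 2-fold, and 816 and 485 at 1.4-fold. Shares over all probe sets were not taken under these settings, so nothing is read from the Tmed probe set counts. For the 7 lists, 0 genes higher became 6 when scaled on the hybridization controls, 2 with no floor, 3 without suffixed probe sets and 1 at 1.4-fold. The 2 lower became 1 when scaled on the hybridization controls, with the mean over probe sets or without suffixed ones, and 0 with a floor at the 80th percentile or at 2-fold. The 6 of 84 list genes stand beside 1693 of all 10003 kept genes on that scale. Without suffixed probe sets 453 of 8307 kept genes were higher and 232 lower. With a floor at the 80th percentile 184 of 5669 kept genes were higher and 98 lower, and with the mean over probe sets 433 and 243 of 10003. Counting probe sets shared with pseudogenes for Tmed2 and Tmed10, an alternative chosen after seeing the data, put Tmed10 at -0.19 and left both Tmed counts as they were. Of all genes past 1.5-fold, 66.1% were higher on the deposited scale and 96.4% on that of the hybridization controls. Of 10003 kept genes 512 were higher and 262 lower by that much as deposited. Scaled on the hybridization controls 1693 were higher and 63 lower. Dim signals near the floor limit what can be said of Tmed6, Tmed8 and the dim probe sets.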

Other observations

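Genes for remodelling of GPI anchors, whose proteins are cargo of p24 complexes, had 4 of 5 members kept and 0 past 1.5-fold on their brightest probe sets. Pgap2 had signals of 837 and 1126, a log2 ratio of -0.43, with -0.14 and -0.10 on its other probe sets. Pgap1 had 0.11. Pgap6 had 0.10 on the brightest probe set and 0.77 on another, at signals of 486 and 284.

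Chaperones and stress genes of the endoplasmic reticulum had 17 of 17 members kept, a median log2 ratio of -0.13, 0 higher by at least 1.5-fold and 1 lower by that much. Sdf2l1, part of an endoplasmic reticulum chaperone complex, was 1.54-fold lower at signals of 477 and 733 on 1 probe set. Dnajc3, a co-chaperone, had 0.32 and Manf, a secreted stress protein, had -0.27. Xbp1, a transcription factor of the stress response, had -0.01 on its brightest probe set and from -0.55 to 0.93 over 4. Of the 17 genes 11 were below 0 as deposited, 10 with quantile or loess correction and 1 when scaled on the hybridization controls. The share of all kept genes below 0 was not counted, so nothing is read from these counts.

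Tmed11, the remaining alpha subfamily member and not among the 10 genes described above, had signals of 30.4 and 66.8 on its single probe set, both under the floor.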
